A study of Mus musculus with 2 samples.

Results

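The genes of the T cell checkpoint and costimulatory system followed here number 10, and they were followed through control skin and skin with allergic contact dermatitis (ACD). They were taken by name, as the 7 receptors Lag3, Pdcd1, Ctla4, Havcr2, Tigit, Icos and Cd28 and the 3 ligands Cd274, Pdcd1lg2 and Cd86, and all 10 were found among the 27998 genes of the count tables. The rule names the genes and uses no measured value, although it was written with earlier results of these data known.

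A T cell is activated when its antigen receptor meets peptide on MHC and a costimulatory receptor is engaged at the same time. CD28, encoded by Cd28, gives that signal when it binds CD80 or CD86 on an antigen-presenting cell, and ICOS is its relative on cells that have already been activated. Inhibitory receptors oppose it: CTLA-4 competes with CD28 for the same ligands, PD-1 (Pdcd1) is engaged by PD-L1 (Cd274) and PD-L2 (Pdcd1lg2), LAG-3 binds MHC class II, TIM-3 (Havcr2) is found on T cells and on phagocytes, and TIGIT competes with the activating receptor CD226 for PVR. Most of these receptors are induced by activation itself, so their mRNA is known from recently activated cells as well as from chronically stimulated ones.

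Control and ACD were each measured by scRNA-seq in a single library, made from the ears of male ICR mice 7 to 8 weeks old, and the number of mice behind a library is not given in the sources used here. The ACD mice were painted on the back with 25 µL of 1.0% DNFB, a contact hapten, were challenged 6 days later with 20 µL of 0.2% DNFB on each ear, and were sampled 60 hours after the challenge; the control is described only as healthy ear skin. Tissue of both groups was digested with collagenase D and DNase1, so every value applies to cells that survived digestion and removal of dead cells. With 1 library per condition there was no replicate and no test of ACD against control, and condition and library cannot be told apart.

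After filtering, 12213 control and 11665 ACD cells were kept, with median depths of 6850 and 7447 unique molecular identifiers (UMIs) per cell. Clustering without the 10 genes gave 835 control and 3354 ACD T/NK/ILC-like cells. Within them, marker gates counted 33 control and 610 ACD CD4+ cells, 14 and 667 CD8+ cells, 22 and 326 Treg cells (Foxp3+), 178 and 416 δγT-like cells, 125 and 144 DETC-like cells (dendritic epidermal T cells), 11 and 393 NK cells, and 67 and 56 Cd3-negative Gata3+ cells. The class carried its defining genes, with Cd3g at 1589 UMIs per 1000000 in control and 1194 in ACD, but the T cell receptor constant genes Trac, Trbc1, Trbc2, Trdc and Tcrg-C1 are absent from the gene list of the files, so δγT-like and DETC-like rest on other markers. A level below is a gene's UMI sum over the UMI total of the cells, per 1000000 UMIs. A range in parentheses is an exact 95% interval, and it covers counting error only. Levels are compared for the same gene between cells and never between genes, since the 3′ tags of the genes are not captured equally. The libraries share 47 of the kept barcodes.

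The files give the genes as Ensembl identifiers, and all 10 were found in the GENCODE M21 annotation of GRCm38, each as a protein-coding gene. The genes Cd28 (1:60716800-60773359, forward strand), Ctla4 (1:60887000-60915832, forward) and Icos (1:60977927-61000320, forward) lie in a row, with 113640 bases between the first pair, 62094 between the next and no other protein-coding gene in between. Pdcd1 (1:94038305-94052553, reverse) is elsewhere on chromosome 1. Lag3 (6:124904361-124911705, reverse) lies 16139 bases from Cd4 and 1975 bases from Ptms, both on its own strand. Havcr2 (11:46454935-46481255, forward), Cd86 (16:36603869-36666081, reverse) and Tigit (16:43648867-43664146, reverse) stand apart from the other members. The ligand genes Cd274 (19:29367455-29388095, forward) and Pdcd1lg2 (19:29410919-29471161, forward) are neighbours 22823 bases apart. Ctla4 overlaps the pseudogene Rpl18-ps1 and Icos the unconfirmed transcript Gm37039 on the same strand, while Cd274 overlaps the antisense gene AC119228.1 and Pdcd1lg2 the antisense gene A930007I19Rik. Whether the counting used strand is not given in the sources used here, so UMIs of these overlapping genes may not be separable.

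The 250 bases before the start of both PD-1 ligand genes are shown because the neighbours were both higher in ACD lymphocytes. The sequences are from RefSeq on GRCm38.p6, 5′ to 3′, at chr19:29367188-29367437 and chr19:29410669-29410918, both on the forward strand.
Cd274: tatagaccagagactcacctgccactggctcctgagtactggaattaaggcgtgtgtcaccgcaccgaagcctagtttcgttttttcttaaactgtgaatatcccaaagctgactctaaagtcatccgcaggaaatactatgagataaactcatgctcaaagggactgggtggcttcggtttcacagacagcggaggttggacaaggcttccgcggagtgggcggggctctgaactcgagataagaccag
Pdcd1lg2: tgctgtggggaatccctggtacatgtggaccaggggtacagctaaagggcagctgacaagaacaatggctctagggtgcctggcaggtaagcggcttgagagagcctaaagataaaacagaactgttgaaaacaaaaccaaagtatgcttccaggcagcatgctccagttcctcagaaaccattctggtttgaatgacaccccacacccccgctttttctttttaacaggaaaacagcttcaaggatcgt
All letters are in lower case because neither of the motifs searched was found: the core of the interferon-stimulated response element (GAAA repeated after a gap of 2 bases), present in 2.98% of 32851 promoters of this table on either strand, or the GAS element TTCNNNGAA, present in 7.02%. Neither was found in the 6 members of the table, which were Pdcd1, Ctla4, Havcr2, Tigit, Cd274 and Pdcd1lg2. Their absence says only that these letters are not in this window.

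Across all T/NK/ILC-like cells, each of the 7 receptors had a higher level in ACD than in control. The Ctla4 level was 31.4 (25.7 to 37.9) in control and 200 (194 to 207) in ACD, and the log2 ratio, which is ACD over control throughout, was 2.68 (2.40 to 2.97). Lag3 went from 6.51 to 39.0, with the log2 ratio at 2.58 (1.97 to 3.27), and Havcr2 from 5.62 to 33.5, with the log2 ratio at 2.57 (1.92 to 3.32). The costimulatory receptors and Pdcd1 differed by about the same, smaller amount: Icos had a log2 ratio of 1.06 (0.95 to 1.18), Cd28 1.09 (0.95 to 1.23) and Pdcd1 1.08 (0.80 to 1.37). Tigit was sparse, with 2 control and 60 ACD UMIs, and its log2 ratio of 2.26 had an interval of 0.34 to 5.34. With 10 UMIs per 1000000 added on each side, a guard against low levels, 5 of the 7 receptors and 1 of the 3 ligands had a log2 ratio of at least 1 and none of the 10 was at or below -1. Of 10349 genes tested alike in this class, 1.54% were higher by that fold and 1.41% were lower, and the median gene had a log2 ratio of -0.08. Cells of the class had a median of 3491 UMIs in control and 5204 in ACD.

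The make-up of this class differed greatly between the libraries, and the class-wide ratios were set against it. The CD8+ gate held 1.74% of the class's UMIs in control and 26.0% in ACD, the CD4+ gate 4.97% and 20.1%, and the Treg gate 2.13% and 8.51%. Over the same comparison the δγT-like gate went from 25.4% to 13.1%, the DETC-like gate from 12.5% to 3.38%, and the cells outside every gate from 44.8% to 18.8%. The control levels of the gates were therefore recombined in the shares the gates have in ACD, a step chosen after the values had been seen. The log2 ratio then was 2.05 for Lag3, 1.28 for Ctla4, 0.39 for Havcr2, 0.25 for Tigit, 0.20 for Icos, 0.01 for Pdcd1 and -0.52 for Cd28. In this recombination Lag3 and Ctla4 had a log2 ratio above 1. Pdcd1 had 69.2 recombined beside 69.9 in ACD, and Cd28 was lower in ACD. For Lag3 the control CD8+ and CD4+ gates, which had no UMIs of it, entered without a floor. A control without UMIs allows levels of up to 62.6 and 22.0 in these gates. Ctla4 rests on very few control UMIs in the CD8+ gate. Whether either ratio stays above 1 is therefore not settled. The recombined control rests on few cells, above all on the 14 control cells of the CD8+ gate, and it carries no interval.

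**Figure D1:**
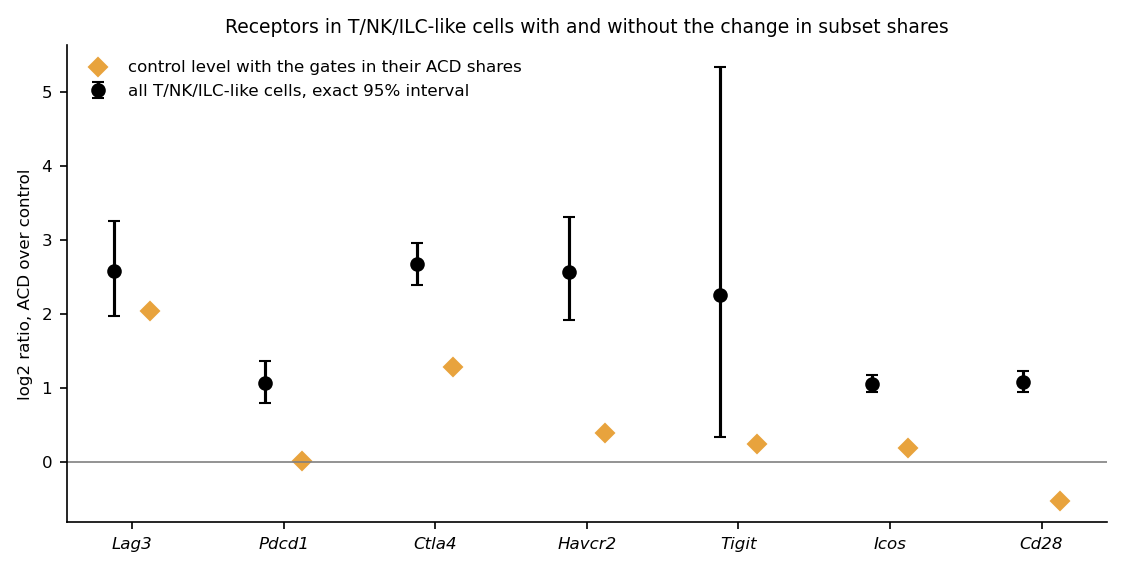
The vertical axis is the log2 ratio of ACD over control for the 7 receptors on the horizontal axis, with black points for all T/NK/ILC-like cells (bars, exact 95% interval, 1 library per condition) and orange diamonds for the control level recombined with the gates in their ACD shares. Every black point lies above 0, while the diamonds run from 2.05 for Lag3 down to -0.52 for Cd28.

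Lag3 was concentrated in the CD8+ gate in ACD. That gate had 0 Lag3 UMIs in control and 607 in ACD, a level of 110 (102 to 119) that was at least 2.16-fold higher when 3 counts are taken for the control. The CD4+ gate had 0 and 84 UMIs, a level of 19.7 in ACD, with 13 of the 84 UMIs in 1 cell. That is 1.10-fold higher with 3 counts taken for the control. The exact interval of a control of 0 in this gate reaches 22.0, so the difference is within counting error. Within the ACD library the CD8+ gate exceeded the CD4+ gate by a log2 ratio of 2.48 (2.15 to 2.83). After every cell was thinned to 2000 UMIs, Lag3 was found in 16.5% (13.8 to 19.6) of CD8+ cells, 2.16% of CD4+, 2.24% of Treg and 1.06% of NK cells, against 0.458% of chondrocyte-like cells, which are no lymphocytes and give the background share. The unthinned shares of these cells were, in this order, 39.9%, 8.03%, 7.06%, 3.05% and 2.40%, at median depths of 6668, 5808, 4816.5, 4057 and 9022.5 UMIs. The other carriers were rare: a DETC sub-cluster led by Gzmc and Nrgn, a granzyme and a calmodulin-binding protein, had Lag3 at 167 (80.3 to 308) in 15 control cells and 91.1 (51.0 to 150) in 25 ACD cells, and these intervals overlap. NK cells had 3 Lag3 UMIs in 11 control cells and 14 in 393 ACD cells, levels of 70.6 and 7.51 with a log2 ratio of -3.23 (-5.08 to -0.79).

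Pdcd1, which encodes PD-1, was highest in δγT-like and CD8+ cells and did not follow the pattern of Lag3. In the δγT-like gate its level was 76.9 (59.5 to 97.9) in control and 148 (134 to 163) in ACD, with the log2 ratio at 0.95 (0.57 to 1.34). That ratio was -0.03 when the gate genes needed 2 UMIs in place of 1, which left 47 control and 262 ACD cells. The sub-clusters show the same gene at different levels: cells led by 5830411N06Rik and Ramp1 had 42.3 in control and 42.1 in ACD, while cells led by the cytokine genes Il17f and Il17a had 130 (59.6 to 248) and 209 (188 to 231). The former sub-cluster held 327 control and 220 ACD cells and the latter 16 and 284. In the CD8+ gate Pdcd1 was 170 (81.3 to 312) in control and 117 (108 to 127) in ACD, with 10 control UMIs and a log2 ratio of -0.53 (-1.42 to 0.53), a difference not detectable at this depth. The CD4+ gate had 29.8 (9.66 to 69.5) and 58.2 (51.2 to 65.9), again with an interval of the ratio that spans 0 (-0.27 to 2.60). The Treg gate had 69.4 (22.5 to 162) from 5 control UMIs and 15.0 (9.86 to 21.8) in ACD, with the log2 ratio at -2.21 (-3.61 to -0.48); in Treg-like sub-clusters, taken in place of the gate, the ratio was -1.28 and its interval spans 0 (-2.76 to 0.68). Among the CD4+ sub-clusters, cells led by Csf2, which encodes GM-CSF, and Cd4 had 0 UMIs in control and 187 in ACD (72.5; at least 1.55-fold higher), and cells led by Dusp10 and Tbc1d4 had 40.6 and 35.9. Thinned to 2000 UMIs, Pdcd1 was found in 20.9% (17.0 to 25.1) of ACD δγT-like cells, 16.4% (13.6 to 19.4) of CD8+, 7.97% of CD4+ and 3.21% of Treg cells. It was found in 0 of 379 thinned NK cells, which allows a share of cells with a UMI of up to 0.792% (3 counts of 379), and unthinned in 1 NK cell, and 0.164% of chondrocyte-like cells give the background.

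Ctla4 was a Treg gene in both libraries, as is known for this receptor, and it was higher in ACD in the Treg and CD4+ gates. In the Treg gate it was 541 (385 to 740) in control and 966 (921 to 1013) in ACD, with the log2 ratio at 0.84 (0.38 to 1.33), and in the CD4+ gate 107 (63.5 to 169) and 248 (233 to 263), with the log2 ratio at 1.21 (0.54 to 1.97). With 2 UMIs required for the gate genes, 5 control Treg cells remained and the Treg log2 ratio was 2.94. The CD8+ gate had 2 control UMIs and a level of 127 in ACD, with an interval of the ratio from 0.05 to 4.96, and in CD8+-like sub-clusters the levels were 141 and 151 and the ratio 0.10 (-0.51 to 0.78). In ACD the Treg gate exceeded the CD4+ gate by a log2 ratio of 1.96 (1.85 to 2.08) and the CD8+ gate by 2.92 (2.80 to 3.05). Thinned, 77.9% (72.9 to 82.4) of ACD Treg cells had a Ctla4 UMI, against 25.7% of CD4+, 18.5% of CD8+, 2.18% of δγT-like and 0.196% of chondrocyte-like cells. Tigit had the same leading gate at a far lower count. Of its 65 ACD UMIs, 19 were in the Treg gate (10.5, 6.34 to 16.4), 11 in the CD4+ gate, 10 in the CD8+ gate and 10 in the NK gate (5.36), and all cells of the control library together had 3.

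Havcr2, which encodes TIM-3, had phagocytes as its main carrier in control and T cells in ACD. In control, 67.8% of its 90 UMIs were in mononuclear phagocyte-like cells and 21.1% in T/NK/ILC-like cells; in ACD, of 987 UMIs, 15.5% were in the former and 71.9% in the latter, with 43.1% in the CD8+ gate alone. The CD4+ gate had 0 UMIs in control and 142 in ACD (33.3, 28.1 to 39.3; at least 1.87-fold higher). The Csf2-led CD4+ sub-cluster held 108 ACD UMIs of Havcr2 and the sub-cluster led by Dusp10 and Tbc1d4 held 0. The CD8+ gate was at 84.8 (27.5 to 198) in control, from 5 UMIs, and 77.1 (70.0 to 84.8) in ACD, with a log2 ratio of -0.14 (-1.37 to 1.49). Phagocytes had a lower level in ACD, 59.2 (50.2 to 69.4) against 96.1 (73.5 to 124), with the log2 ratio at -0.70 (-1.14 to -0.25). Within Langerhans-like cells the levels were 160 and 116 and within DC-like cells 75.8 and 59.6, and neither interval of the ratio excluded 0 (-1.07 to 0.16 and -1.15 to 0.54). Thinned, Havcr2 was found in 10.3% (8.09 to 12.9) of ACD CD8+ cells, 4.65% of CD4+, 4.81% of Treg and 10% of phagocyte-like cells, with 0.0981% of chondrocyte-like cells as background.

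**Figure D2:**
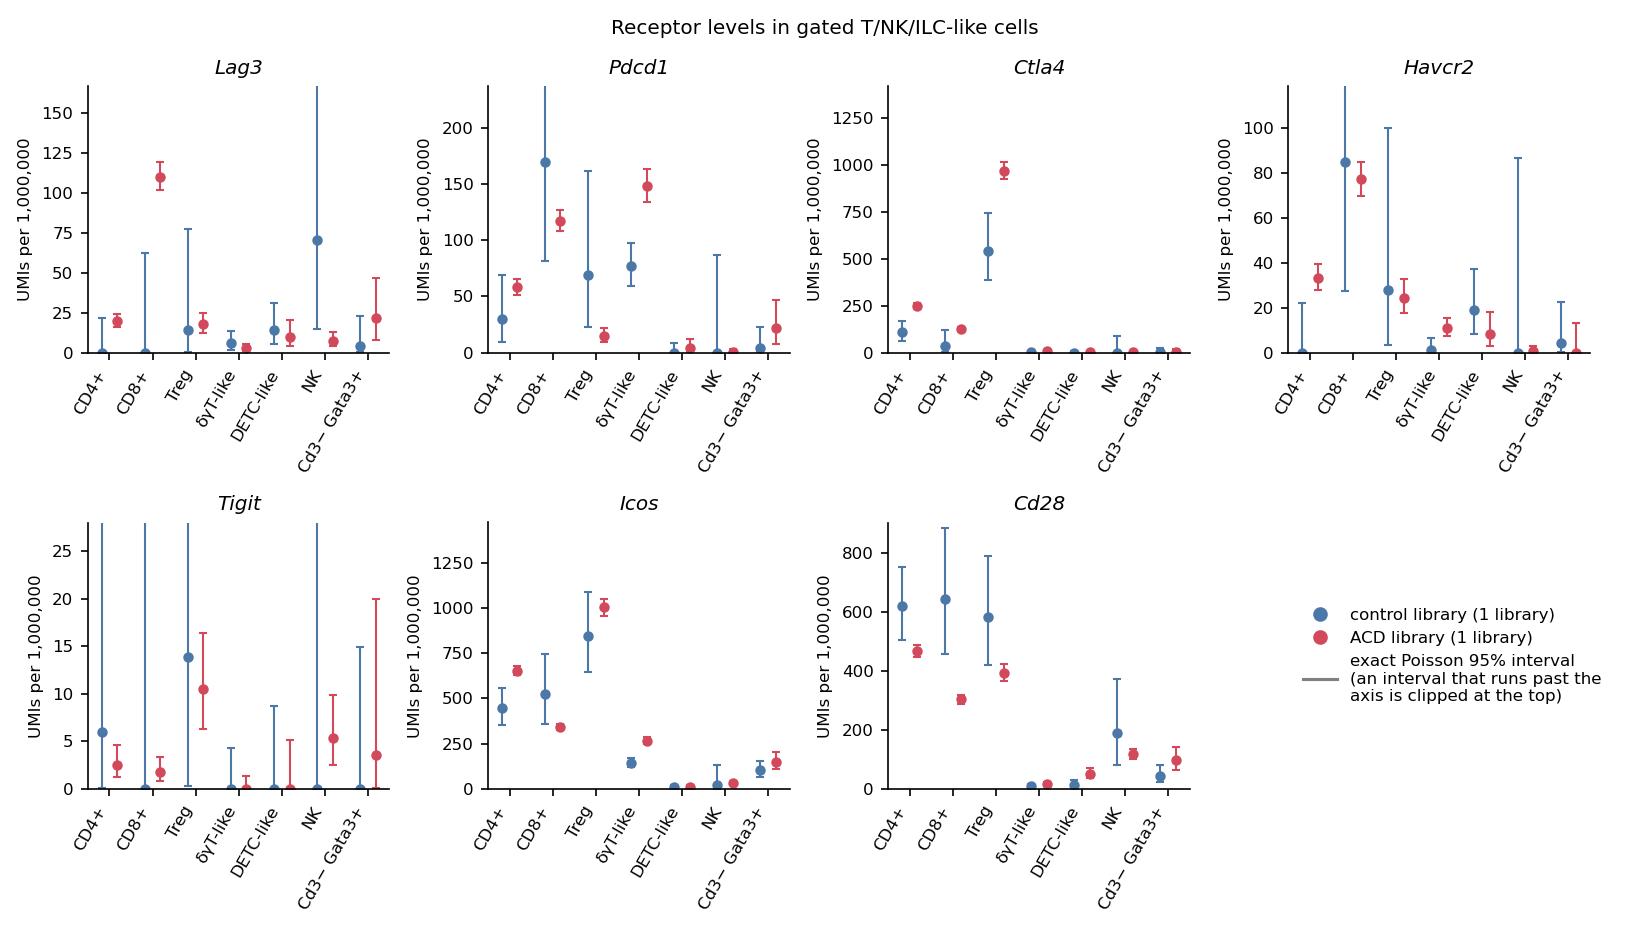
Each panel gives 1 receptor in UMIs per 1000000 (vertical axis) for 7 gates (horizontal axis), blue for the control library and red for the ACD library, with exact Poisson 95% intervals clipped at the top of the axis where they run past it. Lag3 in ACD stands out in the CD8+ gate at 110, Ctla4 and Icos are highest in the Treg gate, and the red Cd28 points of the CD4+, CD8+ and Treg gates lie below the blue ones.

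The costimulatory receptors Icos and Cd28 were widespread in T cells. In the CD4+ gate Icos was higher and Cd28 lower in ACD, and in the CD8+ gate both were lower. Icos, the receptor of activated T cells, was higher in ACD in the CD4+ gate, 446 (351 to 560) against 652 (628 to 677), with the log2 ratio at 0.55 (0.22 to 0.90). It was also higher in the δγT-like gate, 146 (121 to 174) against 266 (248 to 286), with the log2 ratio at 0.87 (0.60 to 1.16), or 1.79 when the gate genes needed 2 UMIs. In the CD8+ gate it was lower, 526 (357 to 746) against 343 (327 to 358), with the log2 ratio at -0.62 (-1.13 to -0.06), with 61 of the ACD UMIs in 1 cell; in CD8+-like sub-clusters the ratio was -0.20 (-0.55 to 0.18). The Treg gate had the highest level in both libraries, 846 and 1003, with a log2 ratio of 0.25 (-0.12 to 0.64). Cd3-negative Gata3+ cells, the gate closest to type 2 innate lymphoid cells, had 105 and 151, a difference inside the counting error.

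Cd28, the receptor naive and memory T cells carry before activation, was lower in ACD within each of the 3 gates with the highest Cd28 levels in both libraries. The CD8+ gate went from 645 (456 to 885) to 304 (289 to 318), with the log2 ratio at -1.09 (-1.55 to -0.58). The Treg gate went from 583 (420 to 788) to 394 (365 to 424), with the log2 ratio at -0.57 (-1.02 to -0.08), and the CD4+ gate from 619 (506 to 750) to 467 (447 to 488), with the log2 ratio at -0.41 (-0.69 to -0.11). The CD4+ sub-cluster led by Dusp10 and Tbc1d4 had 649 in both libraries, and the Csf2-led one 732 and 520. NK cells had 188 (81.3 to 371) and 117 (102 to 134), and the interval of the ratio spans 0. DETC-like cells were low but higher in ACD, 14.3 (5.23 to 31.0) against 51.6 (36.3 to 71.1), with the log2 ratio at 1.86 (0.60 to 3.39). δγT-like cells had 9.33 and 17.6, a ratio whose interval spans 0, and δγT-like sub-clusters had 65.7 and 37.4, with the ratio at -0.81 (-1.18 to -0.45). Thinned, a Cd28 UMI was found in 59.3% of ACD CD4+, 50.3% of Treg, 46.1% of CD8+, 23.2% of NK and 2.67% of δγT-like cells, so the δγT-like share lies below that of chondrocyte-like cells (4.05%), whereas for Icos the δγT-like share was 34.0% against 0.36%.

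Read by gate with the same fold, 3 of the 8 members tested in the CD4+ gate were higher (Havcr2, Lag3 and Ctla4) beside 5.65% of all genes, and 0 were lower beside 1.97%. Of these, Lag3 was within counting error of its control of 0 UMIs. In the CD8+ gate 5 of 9 were higher (Lag3, Ctla4 and the 3 ligands) beside 20.4% of all genes, and Cd28 alone was lower beside 9.02%. These high shares of all genes in the CD8+ gate go with a control of 14 cells and 58953 UMIs. Even a control of 0 UMIs in this gate allows a level of up to 62.6. The ACD levels of the 3 ligands lay below that, at 52.6 for Cd274, 15.1 for Pdcd1lg2 and 16.9 for Cd86. Their calls in this gate are therefore within counting error. In the δγT-like gate Cd274 alone of 4 members was higher, beside 1.49% of all genes, and none was lower, beside 0.5%. In the Treg gate none of 4 passed the fold in either direction, beside 10.6% of all genes higher and 5.36% lower. In the NK gate Cd274 alone of 3 was higher, beside 16.7% of all genes, and none was lower, beside 8.05%.

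Several inhibitory receptors were found together in a larger share of CD8+ than of CD4+ cells. Of ACD cells thinned to 2000 UMIs, 13.9% (11.4 to 16.8) of 660 CD8+ cells had 2 or more of Lag3, Pdcd1, Ctla4, Havcr2 and Tigit, against 5.15% (3.53 to 7.23) of 602 CD4+ cells. Of 312 Treg cells 72.1% (66.8 to 77.0) had exactly 1 and 9.29% had 2 or more. Of 412 δγT-like cells 23.8% had 1 and 0.728% had 2 or more. Of 379 NK cells 97.4% had none. In control 88.4% (82.7 to 92.8) of 173 δγT-like cells carried none, against 75.5% (71.0 to 79.6) in ACD. Of 31 control CD4+ cells 80.6% (62.5 to 92.5) carried none, against 64.0% (60 to 67.8) in ACD, and these intervals overlap. Inside the CD8+ gate, Lag3 and Ctla4 were found together in 33 cells, where the product of their shares gives 20.1. Pdcd1 and Havcr2 were together in 19 cells against 11.1, and Lag3 and the proliferation gene Mki67 in 24 against 14.7. Pairs with the costimulatory Icos also exceeded the product, such as Lag3 and Icos in 58 cells against 44.3 and Ctla4 and Icos in 63 against 49.5. Some other pairs were nearer to the product, such as Lag3 and Pdcd1 in 21 cells against 17.8 and Ctla4 and Havcr2 in 14 against 12.6. Ctla4 and Mki67 were together in 13 cells against 16.5, and Lag3 and Cd28 in 42 against 50.2. These pairs are a description within 1 library, since depth was equal by thinning but the cells are not replicates. In ACD the Lag3 level was 81.7 in the CD8+ sub-cluster led by Hist1h1b and Hist1h2ap, with Mki67 also leading. It was 104 in the one led by Cd8a and Cd8b1, with the log2 ratio of the former over the latter at -0.35 (-0.59 to -0.13).

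**Figure D3:**
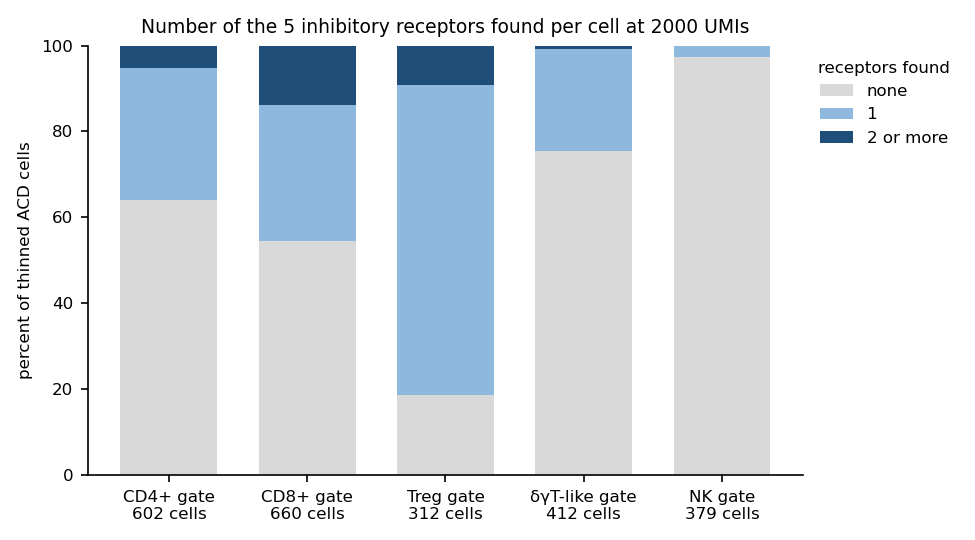
Stacked bars give the percent of ACD cells (vertical axis) in which none, 1, or 2 or more of Lag3, Pdcd1, Ctla4, Havcr2 and Tigit were found after thinning each cell to 2000 UMIs, for 5 gates with their cell numbers (horizontal axis, 1 library). The darkest band, 2 or more, is tallest in the CD8+ gate at 13.9%, and the light blue band fills most of the Treg bar at 72.1%.

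The other genes of the same pathway passed the fold in numbers that varied by gate. In the CD4+ gate 1 of 8 other inhibitory receptors tested, 1 of 10 other costimulatory receptors, 0 of 18 signalling genes and 0 of 12 checkpoint-linked transcription factors were higher, and none was lower, with median log2 ratios of 0.23, 0.40, 0.19 and 0.07, where 5.65% of all genes were higher and 1.97% lower. Cd7 went from 29.8 to 81.2, and Tnfrsf18, which encodes GITR, from 131 to 230. Among the factors, Nr4a2, an early response gene of the antigen receptor, went from 71.4 to 151, while its relative Nr4a1 went from 470 to 268 and Tox, a factor known from exhausted T cells, from 65.5 to 32.2, the last with a log2 ratio of -1.03 (-1.91 to 0.01). In the CD8+ gate 2 of 7 other inhibitory receptors, 3 of 10 costimulatory receptors, 1 of 18 signalling genes and 2 of 13 factors were higher, and 1, 1, 1 and 2 were lower, with median log2 ratios of 0.90, 0.05, -0.14 and -0.31. In that gate 20.4% of all genes were higher and 9.02% lower, so the counts are near those over all genes. Batf, a factor of effector differentiation, had 0 control and 493 ACD UMIs, and Cd160 0 and 295, where the gate totals were 58953 and 5511392 UMIs. A control of 0 in this gate allows a level of up to 62.6. The ACD level of Batf lay above that and the ACD level of Cd160 below it, so Cd160 differed within counting error. Cd5, which dampens antigen receptor signals, went from 322 to 151, Prdm1, which encodes BLIMP-1, from 102 to 21.4, and the kinase gene Lck from 560 to 318.

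In the Treg gate 4 of 8 other costimulatory receptors were higher (Cd7, Slamf6, Cd27 and Tnfrsf9) and 4 of 10 transcription factors lower (Tox, Nr4a2, Nr4a3 and Nfatc1), where 10.6% of all genes were higher and 5.36% lower. Cd27 and Tnfrsf9, as well as Nr4a2 and Nfatc1, are named here after their values were seen. Cd7, Slamf6 and Cd27 rest on 0, 3 and 5 control UMIs, and the lower bounds of their log2 ratios were 0.07, 0.22 and 0.19. Tnfrsf9, which encodes 4-1BB, went from 236 to 507, with the log2 ratio at 1.10 (0.42 to 1.89), and Tox from 222 to 78.1, with the log2 ratio at -1.51 (-2.26 to -0.66). Of 7 other inhibitory receptors 1 was higher and 1 lower, and of 17 signalling genes 2 were higher and 0 lower. In the NK gate 2 of 5 other inhibitory receptors were lower, where 8.05% of all genes were: Cd160 went from 188 to 38.1, with the log2 ratio at -2.31 (-3.36 to -1.04), and Cd244 from 188 to 86.4, with an interval of the ratio that spans 0 (-2.14 to 0.11). None of 6 costimulatory receptors passed the fold there, while 1 of 11 factors and 2 of 17 signalling genes were higher and 2 and 1 lower. In the δγT-like gate 1 of 3 inhibitory receptors, 1 of 6 costimulatory receptors, 0 of 17 signalling genes and 2 of 11 factors were higher and 1 factor was lower, beside 1.49% of all genes higher and 0.5% lower. The factors were Nr4a1 (289 and 616) and Batf (33.8 and 84.9), which were higher, and Tcf7 (134 and 57.5), a factor of naive and memory T cells, which was lower. The Treg and NK controls hold 22 and 11 cells.

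Some receptor UMIs lay outside lymphocytes. In control, dFB-like cells (dermal fibroblasts) held 45.2% of the 420 Lag3 UMIs and T/NK/ILC-like cells 5.24%, whereas of the 1463 UMIs in ACD 56.5% lay in T/NK/ILC-like cells and 13.5% in dFB-like cells. Chondrocyte-like cells, which give the background share above, held 100 Lag3 UMIs in control and 78 in ACD. The dFB-like level of Lag3 was 7.06 (6.09 to 8.14) in control and 13.9 (12 to 16.0) in ACD, with the log2 ratio at 0.98 (0.68 to 1.27). Within dFB clusters it was 12.7 and 17.3 in cells led by Cyp2f2 and Stc1, 7.21 and 9.75 in cells led by Sfrp4 and Mfap5 and 3.74 and 3.90 in cells led by Postn and Cthrc1, and each of these intervals of the ratio spans 0. The cluster led by Saa3 and Cxcl9 had 6 control and 480 ACD cells and a Lag3 level of 18.2 in ACD. The T cell gene Cd3g was at 8.21 in control and 33.4 in ACD dFB-like cells, against 1589 and 1194 in T/NK/ILC-like cells. Lag3 in T/NK/ILC-like cells was at 6.51 and 39.0. Whether lymphocyte RNA contributed to these UMIs was not tested. Nor was it tested whether the Lag3 UMIs of dFB-like cells are transcripts of Lag3 itself.

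Cd28 UMIs were frequent in chondrocyte-like cells, the ear cartilage cells, which held 45.8% of all Cd28 UMIs in control. Their level was 15.5 (14.2 to 16.9) in control, from 520 UMIs in 324 cells, and 26.0 (24.2 to 27.9) in ACD, from 775 UMIs in 444 cells, with the log2 ratio at 0.75 (0.59 to 0.91). The same cells held 6 and 41 UMIs of Icos, while T/NK/ILC-like cells held 429 and 5726 UMIs of Cd28 beside 678 and 8877 of Icos. The 2 genes therefore stood in different proportions in the 2 cell classes. Of the chondrocyte clusters, cells led by Gdf5 and Clu had 26.4 and 30.2, cells led by 1520401A03Rik and 3110079O15Rik 16.9 and 34.3, cells led by Msmp and Trf 10.6 and 24.3, and cells led by Prss23 and Snhg11 11.7 and 14.0. Cd3g was at 1.10 and 3.86 in chondrocyte-like cells. Ctla4 UMIs outside lymphocytes were in few cells in ACD, such as 42 in 9 VSMC-like cells (vascular smooth muscle) with 23 in 1 of them.

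The ligand Cd274, which encodes PD-L1, reached 20 UMIs in 22 classes and gates, more than any other member, and the interval of the ratio lay above 0 in 15, below 0 in 0 and across 0 in 7. Ctla4 reached 20 UMIs in 11, with the interval above 0 in 9, and Icos in 16, with it above 0 in 11. Gates nest in the T/NK/ILC-like class, so these counts are not over separate cell types. Its level was 1.97 (1.48 to 2.58) in control and 23.1 (20.7 to 25.7) in ACD dFB-like cells, with the log2 ratio at 3.55 (3.13 to 4.0), and 3.19 (0.87 to 8.17) and 60.9 (49.3 to 74.4) in endothelial-like cells, with the log2 ratio at 4.25 (2.85 to 6.16). Pericyte-like cells went from 5.66 to 60.5 with a log2 ratio of 3.42 (2.29 to 4.79), and VSMC-like cells from 2.59 to 30.8 with 3.57 (2.46 to 4.93). Schwann-like cells had 0 and 57 UMIs, at least 14.5-fold higher. Chondrocyte-like cells were lower than dFB-like, endothelial-like, pericyte-like and VSMC-like cells in both libraries, at 0.624 and 9.47, with the log2 ratio at 3.92 (3.28 to 4.64). Melanocyte-like cells had 74.5 (60.4 to 91.0) in control and 230 (206 to 256) in ACD, with the log2 ratio at 1.62 (1.29 to 1.97). With 10 added on each side Cd274 was past the fold in dFB-like cells beside 1.04% of all genes, in endothelial-like cells beside 2.62%, in pericyte-like cells beside 1.92%, in VSMC-like cells beside 1%, in Schwann-like cells beside 1.48% and in melanocyte-like cells beside 1.42%. It was not past it in chondrocyte-like cells, where 0.478% of all genes were. The shares of all genes lower by that fold were 0.167% in dFB-like, 1.55% in endothelial-like, 2.37% in pericyte-like, 1.71% in VSMC-like, 0.28% in Schwann-like, 0.682% in melanocyte-like and 0% in chondrocyte-like cells, and no member was among them.

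Keratinocyte-like cells showed no such difference. Their Cd274 level was 6.0 (3.36 to 9.89) in control, from 15 UMIs, and 5.31 (2.55 to 9.76) in ACD, from 10 UMIs, with the log2 ratio at -0.18 (-1.49 to 1.08), and its upper bound lies below the lower bounds in dFB-like, endothelial-like, pericyte-like, VSMC-like and chondrocyte-like cells. With every deposited barcode in place of the filtered cells the ratio was 2.17, so the keratinocyte-like result depends on the filter. Cd274 in mast cell-like (63.0 and 93.9) and basophil-like cells (74.2 and 96.7) differed within counting error. The Cd274 level of dFB-like cells in ACD was 23.1 beside 84.6 in T/NK/ILC-like cells, and Cd3g in the same cells was 33.4 beside 1194. Whether lymphocyte RNA contributed to the former was not tested.

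Within classes the level was uneven. Among dFB clusters in ACD, cells led by Saa3 and Cxcl9 had 35.0 (30.7 to 39.7), cells led by Sfrp4 and Mfap5 15.2, cells led by Postn and Cthrc1 7.02 and cells led by Cyp2f2 and Stc1 3.29. The log2 ratio of the Saa3-led cluster over the Cyp2f2-led one was 3.41 (2.04 to 5.30) and over the Sfrp4-led one 1.20 (0.81 to 1.62). The Cyp2f2-led cluster had 2.92 in control, so its ACD level was within counting error of it (log2 ratio 0.17, -1.82 to 1.73), as against 1.53 to 15.2 in the Sfrp4-led cluster. Endothelial cells led by Fabp4 and Tmem252, with the venular adhesion genes Selp and Sele also leading, had 82.9 (59.8 to 112) in ACD. Those led by Ccl21a and Cldn5, with the lymphatic genes Lyve1 and Prox1 also leading, had 50.5 (37.9 to 65.8). The log2 ratio of the former over the latter was 0.72 (0.10 to 1.33). Among chondrocytes, cells led by Prss23 and Snhg11 went from 0.901 to 26.7, and cells led by 1520401A03Rik and 3110079O15Rik from 0.573 to 2.07.

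**Figure D4:**
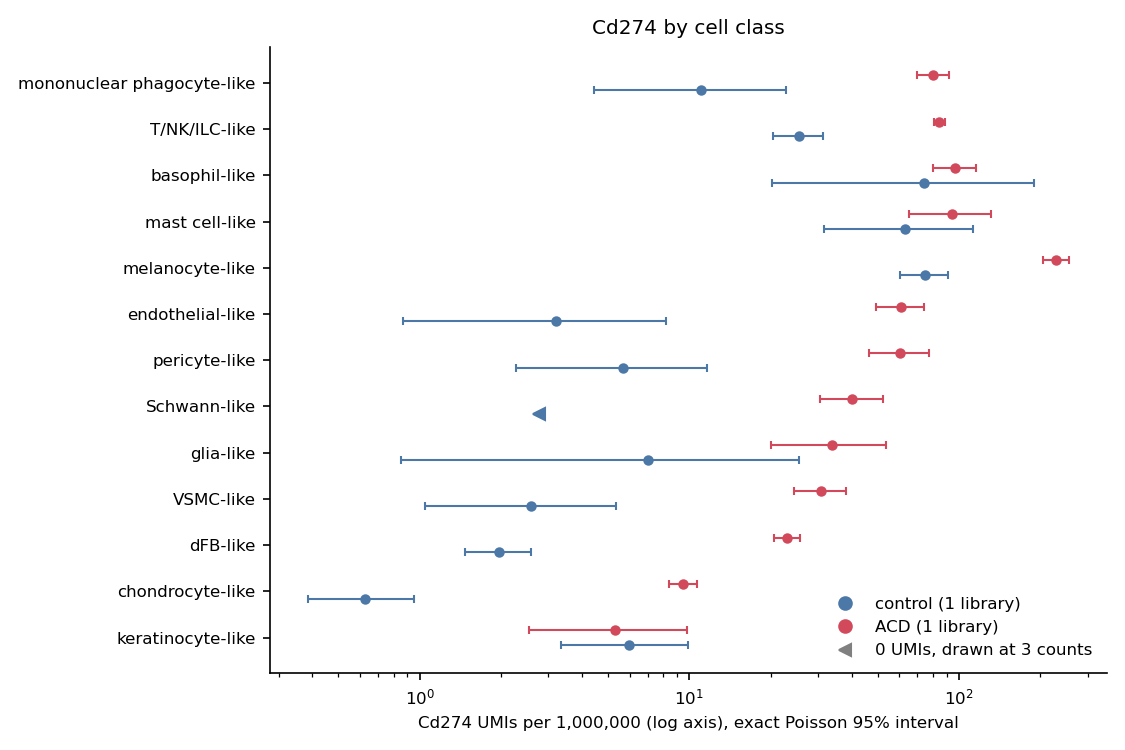
Cd274 UMIs per 1000000 (horizontal log axis) for 13 cell classes (vertical axis), blue for control and red for ACD, 1 library each, with exact Poisson 95% intervals and a triangle where the control had 0 UMIs, drawn at 3 counts. The red points lie to the right of the blue ones with no overlap of intervals in dFB-like, endothelial-like, pericyte-like, VSMC-like and chondrocyte-like cells, while keratinocyte-like cells overlap at 6.0 and 5.31.

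Lymphocytes also carried Cd274. T/NK/ILC-like cells had 25.4 (20.4 to 31.4) in control and 84.6 (80.7 to 88.6) in ACD, with the log2 ratio at 1.73 (1.42 to 2.06), and held 46.9% of all ACD Cd274 UMIs. In ACD the gates ranged from 52.6 in CD8+ to 132 in Treg cells, with 95 in CD4+, 99.8 in NK and 76.6 in δγT-like cells. The δγT-like gate had a control level of 16.3 (8.92 to 27.4) and a log2 ratio of 2.23 (1.45 to 3.13), whereas the Treg gate was at 111 (47.9 to 219) in control and its ratio of 0.25 spans 0. Pdcd1lg2, which encodes PD-L2, the ligand best known from antigen-presenting cells, was sparser and followed another pattern. T/NK/ILC-like cells held 312 of its 409 ACD UMIs, with 5.03 (2.93 to 8.05) in control and 14.7 (13.1 to 16.4) in ACD, with the log2 ratio at 1.55 (0.85 to 2.35), and the ACD levels were 23.8 in Treg, 19.2 in CD4+, 18.2 in NK, 15.1 in CD8+ and 3.96 in δγT-like cells. Basophil-like cells had 34 UMIs of Pdcd1lg2 in ACD (26.7, 18.5 to 37.4) and phagocyte-like cells 19. dFB-like cells, which carried Cd274, had 2 control and 5 ACD UMIs of Pdcd1lg2, and 0 of the latter were in the Saa3-led cluster.

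Mononuclear phagocyte-like cells numbered 84 in control and 339 in ACD, and their Cd274 and Cd86 differed in opposite directions. Cd274 went from 11 (4.44 to 22.7) to 80.1 (69.6 to 91.8), with the log2 ratio at 2.86 (1.79 to 4.19). With 10 added, 2 of the 5 members tested in this class were past the fold, Cd274 and Icos, beside 3.27% of all genes, and none was lower beside 2.76%. Icos came from 2 and 62 UMIs, and 22 ACD cells held the latter. The T cell gene Cd3g was at 156 in control and 124 in ACD in this class, beside 1589 and 1194 in T/NK/ILC-like cells. Whether the Icos UMIs are of phagocyte origin was not tested. By sub-cluster, Cd274 was 243 (173 to 333) in mature DC-like cells and 213 (163 to 275) in monocyte-like cells, which were in the ACD library only, and DC-like cells had 0 and 82 UMIs (69.8; at least 4.91-fold higher). Langerhans-like cells had 2 UMIs of Cd274 in ACD beside 180 of Cd86.

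Cd86, the ligand that engages both CD28 and CTLA-4, was lower in the phagocyte class as a whole, 331 (288 to 379) in control and 177 (161 to 194) in ACD, with the log2 ratio at -0.90 (-1.14 to -0.66). The sub-clusters changed in number, with 32 control and 28 ACD Langerhans-like cells, 27 and 119 DC-like cells, 5 and 15 mature DC-like cells, 18 and 3 macrophage-like cells and 0 and 32 monocyte-like cells. Among the sub-clusters left unnamed, one led by Gm26917 and Cxcl9 had 2 and 103 cells, with a median depth of 1254 UMIs in ACD, and one led by Cox6a2 and Siglech had 0 and 39. Within Langerhans-like cells Cd86 was 579 (492 to 677) and 410 (353 to 475), with the log2 ratio at -0.50 (-0.81 to -0.18). Within DC-like cells it was 123 and 143 (log2 ratio 0.22, -0.39 to 0.87), and within mature DC-like cells 440 and 355 (log2 ratio -0.31, -1.04 to 0.47). The class difference was larger than the difference inside any of these 3 sub-clusters; with a stricter cell filter it was -0.49 and with thinned cells -0.46. T/NK/ILC-like cells had 1 UMI of Cd86 in control and 156 in ACD (7.36, 6.25 to 8.61), and 93 of the ACD UMIs were in 79 cells of the CD8+ gate. Thinned to 2000 UMIs, Cd86 was found in 3.64% (2.34 to 5.36) of ACD CD8+ cells, 0.997% of CD4+ cells and 0.0327% of chondrocyte-like cells, and cells called doublets were left in.

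**Figure D5:**
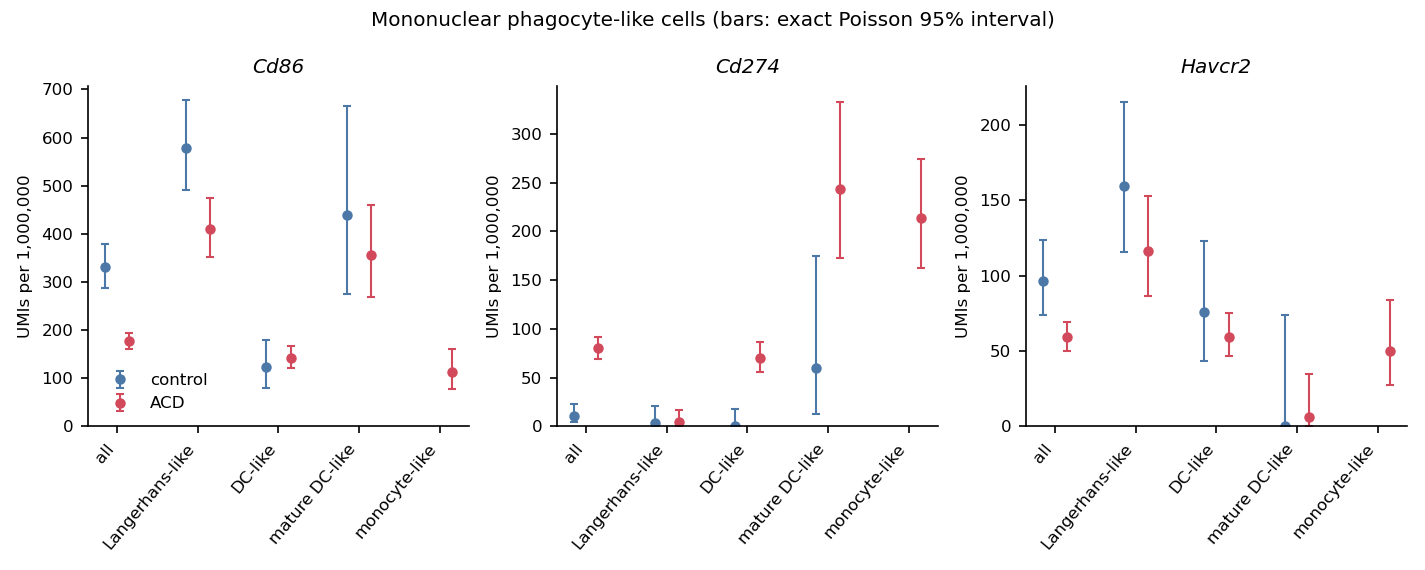
The panels give Cd86, Cd274 and Havcr2 in UMIs per 1000000 (vertical axes) for all mononuclear phagocyte-like cells and their sub-clusters (horizontal axis), blue for control and red for ACD, with exact Poisson 95% intervals and 1 library each; monocyte-like cells were found in the ACD library only. Cd86 in all phagocytes goes from 331 to 177, while the DC-like points lie close together at 123 and 143.

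Of the other ligands 7 were tested in phagocyte-like, 11 in dFB-like and 7 in endothelial-like cells, and 0 were higher or lower, where 3.27%, 1.04% and 2.62% of all genes were higher. In keratinocyte-like cells 1 of 5 was higher, where 1.73% of all genes were, and 0 lower, where 0.632% were. It was Lgals9, which encodes galectin-9, a ligand of TIM-3, and it went from 24.4 (18.7 to 31.3) to 67.9 (56.7 to 80.8), with the log2 ratio at 1.48 (1.03 to 1.94). In phagocytes Cd40, whose product receives T cell help, went from 45.7 to 83.6, with the log2 ratio at 0.87 (0.31 to 1.48), and Cd48 from 75.7 to 135. In dFB-like cells Lgals9 went from 55.6 to 80.7, with the log2 ratio at 0.54 (0.42 to 0.65), and Cd40 from 1.04 to 6.57. In endothelial-like cells Lgals9 went from 71.0 to 107 and Pvrl3, the gene for nectin-3, from 27.9 to 14.0. The nectin genes appear in the files under their older symbols Pvrl2 and Pvrl3.

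The genes with the most similar levels over 44 profiles (each a class or gate in 1 library with at least 20 cells) differed from member to member. For Lag3 they were Cd8b1 and Cd8a, with Pearson's r of 0.70 and 0.68, for Ctla4 Cd5 and Tnfrsf4 with 0.94 and 0.93, and for Cd28 Sh2d1a with 0.90. Icos was closest to Il2ra (0.89), Pdcd1 to Cd226 (0.83), Tigit to Cd28 (0.79) and Havcr2 to Cd86 (0.79). Cd86 was closest to H2-DMb2 (0.94) and H2-Eb1 (0.91), which belong to MHC class II, and Pdcd1lg2 to Ms4a6b (0.78). Cd274 was closest to Cript (0.72). Cd8a and Cd8b1 define the CD8+ gate and were required to be absent from CD4+, Treg, δγT-like and DETC-like cells. The CD8+ gate entered from the ACD library only, since its control held under 20 cells. The similarity of Lag3 to these genes therefore follows in part from the gates. The profiles share 2 libraries and gates nest in classes, so these values are a description only.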

How the data were processed

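The authors aligned reads of control and ACD ear skin to mm10 and deposited raw UMI counts per gene and barcode, with no normalization (Cell Ranger 3.1.0 in the submitters' processing notes, while the methods name another version). The files held 12895 control and 13163 ACD barcodes, 50 of them shared. The filter asked for over 200 genes, under 5000 genes, no more than 25000 UMIs (printed in the methods with the opposite sign) and a mitochondrial share below 8%. The study states fewer cells per library than this filter leaves.

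Cells were scaled to 10000 UMIs, and 2000 variable genes without the members and pathway lists gave 30 principal components, 20 neighbors and Leiden clusters at resolution 1, named from marker lists. Mixed cells (110 and 278) and unnamed cells (2178 and 1605) were set apart. Scrublet called 4.59% and 3.36% of cells, and these were left in. Gates were applied to T/NK/ILC-like cells with 1 UMI of each defining gene: a Cd3 gene with Cd4, with Cd8a or Cd8b1, with Foxp3, with 2 δγT genes (Cd163l1, Il23r, Sox13, Blk and 1 gene not reported here) or with 2 DETC genes (Avil, Cd7, Fcer1g, Gzmc), and for NK and Gata3+ cells no Cd3 gene.

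Levels are UMI sums per 1000000 with exact Poisson intervals, ratios have exact conditional binomial intervals, and shares Clopper-Pearson ones, all at 95% and for counting error only; 3 counts stand for a control of 0. The fold across genes was a log2 ratio of 1 with 10 added, among genes with at least 50 UMIs. Members were named where they reached 20 UMIs, pathway genes by the 2 highest and 2 lowest ratios per list, of which some are given. Counts under 20 UMIs that are printed, and the recombined gates, were chosen after the values were seen. Alternatives were other size factors, cell and count filters, cluster resolutions and genes, gates, sub-clusters, thinning, weighting by cell, added values and doublets left out. The members and lists were chosen with earlier results of these data known. Python 3.11.15, NumPy 2.4.6, SciPy 1.17.1, scikit-learn 1.9.0, igraph 0.11.9 and leidenalg 0.10.2 were used. The level and interval steps were tested on simulated Poisson counts. These counts lack the clumping of UMIs in single cells, so that run cannot show whether the intervals are wide enough for such genes.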

Additional observations from a re-analysis of the deposited data

Results flagged for a closer look

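For 3 receptors the intervals of the ratio of ACD over control lay wholly above 0 in some cells and wholly below 0 in others, with more than 3 UMIs in each library. The size limit was added after the values had been seen, and without it Havcr2 (δγT-like cells against phagocytes) and Cd86 (T/NK/ILC-like cells against phagocytes) would also have differed in direction, each with 1 control UMI on the higher side. Pdcd1 had a log2 ratio of 0.95 in the δγT-like gate and -2.21 in the Treg gate, 3.16 apart. The former was -0.03 with 2 UMIs for the gate genes. The latter was -1.28 in Treg-like sub-clusters, with an interval that spans 0. Icos had 0.87 in the δγT-like gate (1.79 with 2 UMIs for the gate genes) and -0.62 in the CD8+ gate, 1.49 apart. In CD8+-like sub-clusters the Icos ratio was -0.20, with an interval that spans 0. Cd28 had 1.86 in the DETC-like gate and -1.09 in the CD8+ gate, 2.94 apart. With 1 library per condition none of these differences was tested.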

How the results depend on the processing

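Of 38 ratios with a value, 27 kept their direction in every alternative run; the other 11 were Cd274 in keratinocyte-like cells, Cd28 in T/NK/ILC-like, NK and δγT-like cells, Ctla4 and Pdcd1 in δγT-like cells, Havcr2 in CD8+ and Treg cells, Pdcd1 in CD8+ cells, Icos in NK cells and Tigit in Treg cells. With the control gates recombined in their ACD shares, an alternative added after seeing the data, the T/NK/ILC-like log2 ratios were 0.0129 for Pdcd1, 1.28 for Ctla4, 0.39 for Havcr2, 0.25 for Tigit, 0.20 for Icos and -0.52 for Cd28, the last reversed. Median-of-ratios size factors gave 1.23 for Icos and 1.26 for Cd28, and thinning gave 1.19 and 1.35. Cd86 in phagocytes was -0.49 with the stricter cell filter and -0.46 thinned, and Cd274 in keratinocyte-like cells was 2.17 with all deposited barcodes. With 2 UMIs for the gate genes Ctla4 in the δγT-like gate was -0.0508, reversed, Icos in the same gate 1.79 and Lag3 in the NK gate -4.07. As a mean over cells, Cd274 in phagocytes was 3.6. The cause was not tested. A ratio whose control had no UMIs has no value and is not among the 38. The ratios of Lag3 in the CD8+ and CD4+ gates and of Havcr2 in the CD4+ gate were thus run under no alternative. No paired analysis was possible because each condition is 1 library.

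Counts of genes past the fold moved by over 1.5 times when 1 was added in place of 10: in T/NK/ILC-like cells from 159 to 414 higher and 146 to 595 lower, in phagocytes from 200 to 403 and 169 to 262 (262 also with no minimum), in dFB-like cells from 125 to 363 and 20 to 81, in the CD4+ gate from 368 to 767 and 128 to 344 (260 with no minimum), and in the δγT-like gate from 95 to 170 and 32 to 86. Higher counts went from 60 to 163 in chondrocyte-like and 80 to 142 in VSMC-like cells. Lower counts went from 126 to 226 in pericyte-like (191 with no minimum), 137 to 281 in VSMC-like, 17 to 38 in Schwann-like (26 with no minimum), 46 to 89 in melanocyte-like, 46 to 112 in keratinocyte-like, 97 to 197 in endothelial-like and 641 to 984 in CD8+ cells (1105 with no minimum). With at least 20 UMIs in place of 50 or no minimum, the Treg gate went from 481 to 1112 or 1162 higher and 243 to 488 or 1096 lower, and the NK gate from 714 to 1812 or 1875 and 344 to 674 or 1341. With no minimum higher counts went from 102 to 171 in pericyte-like, 96 to 151 in melanocyte-like and 90 to 160 in Schwann-like cells (149 with at least 20 UMIs). Control gates of 11 to 33 cells limit every ratio in CD4+, CD8+, Treg and NK cells.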
